A study of Homo sapiens with 6 samples.

Results

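The genes described here are the small RNA machinery of AsPC-1 cells: the 4 Argonaute genes (AGO1, AGO2, AGO3 and AGO4), the 3 TNRC6 scaffold genes (TNRC6A, TNRC6B and TNRC6C) and the microRNA processing genes DICER1, DROSHA and DGCR8. These 10 genes were picked by name from the 20263 gene rows of the count table, and all 10 were found and tested. AsPC-1 is a human pancreatic adenocarcinoma cell line, and mRNA libraries of its cells were sequenced after transfection by jetPRIME with HMOX1si1 or HMOX1si2, both siRNAs against HMOX1 (the heme-degrading enzyme heme oxygenase-1), or with a negative control siRNA (siControl). Each of the 3 groups held 2 libraries, labelled as replicates of 1 cell line, and no label says whether they were separate cultures. The p-values therefore cover only the spread among these libraries, which may be technical. All 6 libraries came from cells that had received an siRNA and transfection reagent, and no untransfected cells were analysed here.

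MicroRNAs are cut from long transcripts by the Microprocessor, in which DROSHA is the nuclease and DGCR8 its RNA-binding partner, and then by DICER1 in the cytoplasm. The resulting short RNAs are loaded into an Argonaute protein, which is guided by them to messenger RNAs, and TNRC6 proteins bridge Argonautes to the deadenylases that shorten and silence those messages. siRNAs such as the ones transfected here enter at the Argonaute step, and AGO2 is the Argonaute best known for cutting a fully matched target.

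Library totals lay between 36.1 and 45.1 M counts, and 13769 genes passed the expression filter. HMOX1 itself stood at 2.43 and 2.80 CPM (reads counted for the gene per M of the library's counts, after TMM scaling) in the HMOX1si1 libraries, at 1.27 and 1.17 in the HMOX1si2 libraries and at 9.06 and 8.52 in the siControl libraries, which is lowest with HMOX1si2 and highest with siControl. All 9 epithelial carcinoma markers checked were above 1 CPM in every library, with summed levels of 10300 to 10600 CPM for HMOX1si1, 13900 to 14700 for HMOX1si2 and 14000 to 15600 for siControl. Of the markers of other cell types, CD68, COL1A1 and LUM also exceeded 1 CPM in every library, and CD3E, HBB, CPA1, INS and SST were at 0 throughout. The 5 blood cell markers summed to 135 to 161 CPM with HMOX1si1, 97.7 to 127 with HMOX1si2 and 88.0 to 91.3 with siControl. The 6 fibroblast markers summed to 89.5 to 97.2, 77.6 to 89.7 and 117 to 126 CPM in the same order. CD68 was the only blood cell marker above 1 CPM in every library. The labels name AsPC-1 cells alone, so these sums do not measure a share of other cells. Which cells gave these reads was not tested. In bulk RNA of this kind, fewer expressing cells and less RNA per cell cannot be told apart.

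Among the 10 genes, edgeR called AGO4 against siControl and TNRC6B between the siRNAs, with all 6 libraries in the fit. Each of these calls was lost when any 1 library was left out. AGO4 rose 1.42-fold with HMOX1si1 and 1.39-fold on average over both siRNAs. TNRC6B stood at 0.553 times its HMOX1si1 level with HMOX1si2. TNRC6C had the highest fold of the set, 2.18 on average, but it missed the threshold in edgeR, whereas DESeq2's Wald test called it with each siRNA and on average. AGO1 missed the threshold in edgeR and was called by DESeq2 on average. AGO2, AGO3, TNRC6A, DICER1, DROSHA and DGCR8 passed in no comparison of this edgeR fit, which does not show that their levels were equal. Throughout, a gene is called when its edgeR quasi-likelihood p, Benjamini-Hochberg adjusted over all genes tested, is under 0.05, and log2 fold changes are given with their standard error (SE). Both siRNA comparisons and the average use the same control libraries.

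The count of called members was 1 of 10 with HMOX1si1, 0 of 10 with HMOX1si2, 1 of 10 on average and 1 of 10 between the siRNAs. Over all genes tested, edgeR called 10.0%, 5.73%, 10.1% and 3.62% in these comparisons, so a count of 0 or 1 in 10 does not set the members apart from other genes. At an unadjusted edgeR p under 0.05 there were 4, 4, 4 and 1 members, beside 30.8%, 25.9%, 31.3% and 20.6% of all genes. DESeq2's Wald test called 3, 2, 3 and 1 members, beside 19.2%, 14.9%, 19.1% and 10.7% of all genes that it gave an adjusted p. For HMOX1si1 the 3 were AGO4, TNRC6B and TNRC6C, and for HMOX1si2 the 2 were AGO4 and TNRC6C. The median log2 fold change of the members was 0.22 with HMOX1si1, 0.21 with HMOX1si2 and 0.17 on average, beside −0.001, 0.002 and −0.004 over all genes tested. In 4 members, AGO1, AGO4, DROSHA and TNRC6C, all 4 knockdown libraries lay above both control libraries, as they did in 18.7% of all genes tested. In 0 members did they all lie below, against 18.2% of all genes.

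**Figure D1:**
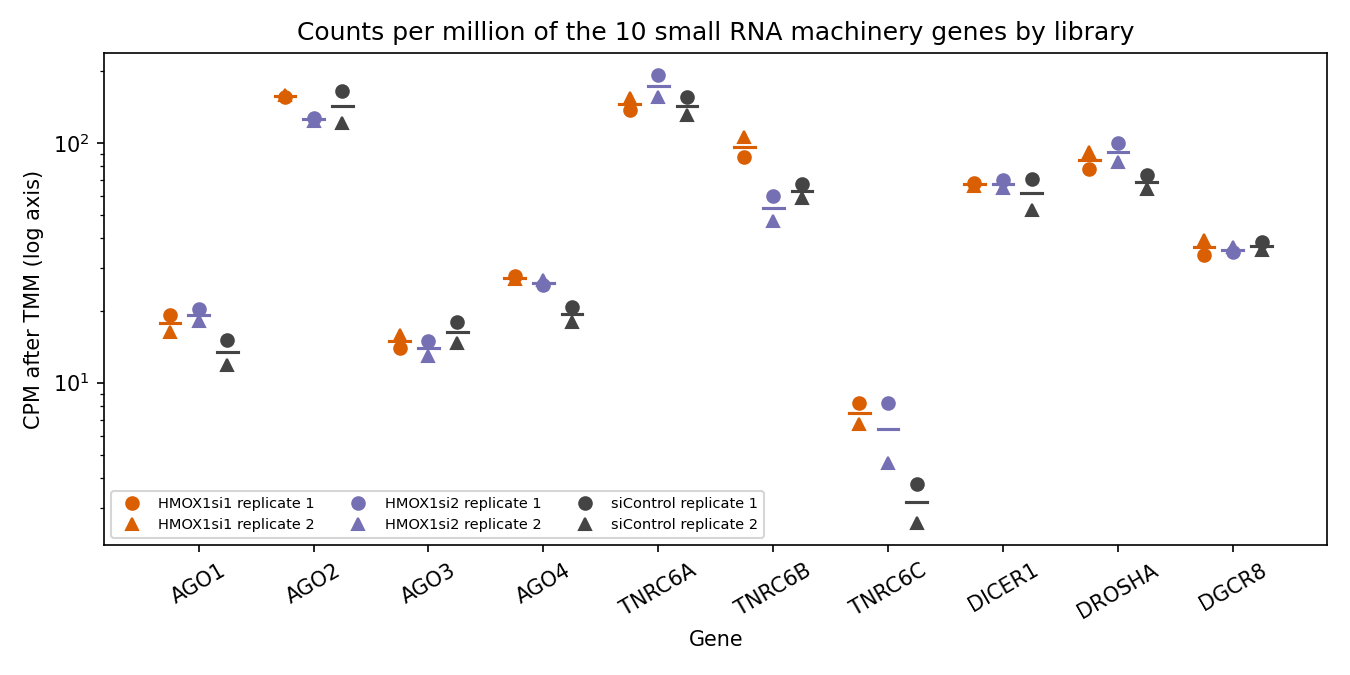
CPM after TMM (log axis) of each of the 10 genes in each library; circles are replicate 1, triangles replicate 2 and bars the mean of 2 libraries. The AGO4 points of both knockdown groups lie above both siControl points, and the TNRC6B points of HMOX1si1 lie above all others.

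The 10 genes also share size: their exons add up to between 7267 bases for AGO4 and 21157 for AGO3 in GENCODE 29. In siControl, replicate 1 was above replicate 2 in 10 of 10 members, with a median log2 ratio of 0.27. The 3415 tested genes in the same range of exon length showed this order in 69.6% of cases (median 0.11), and all tested genes did in 49.3%. Genes of that length range also had a median log2 fold change of 0.12 with HMOX1si1, 0.10 with HMOX1si2 and 0.11 on average, and edgeR called 10.8%, 6.09% and 10.9% of them. The part of exon length in the members' values was not tested.

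The Argonautes are the proteins that hold the small RNA. AGO4, AGO1 and AGO3 are neighbours, in that order, on the plus strand of chromosome 1, at chr1:35808172-35857890, chr1:35869808-35930528 and chr1:35930718-36072500 in GRCh38 (GENCODE 29). None of the 3 shares exonic bases with another gene of the table. The 3 neighbours are shown by the 300 bases around their start sites (250 before and 50 after, RefSeq, GRCh38.p14, plus strand). These starts differ from the outer GENCODE starts. The windows were chosen because edgeR called AGO4 and not its neighbours. That does not set AGO4 apart from AGO1: their average log2 fold changes were 0.48 and 0.46, and DESeq2 called AGO1 on average too. A difference between the 2 genes was not tested. Capitals mark GC boxes (GGGCGG) and CCAAT boxes (CCAAT), searched on both strands together with the AP-1 or Maf recognition core TGANTCA and the antioxidant response core TGANNNNGC. These last 2 motifs can overlap each other.
AGO4, chr1:35807766-35808065: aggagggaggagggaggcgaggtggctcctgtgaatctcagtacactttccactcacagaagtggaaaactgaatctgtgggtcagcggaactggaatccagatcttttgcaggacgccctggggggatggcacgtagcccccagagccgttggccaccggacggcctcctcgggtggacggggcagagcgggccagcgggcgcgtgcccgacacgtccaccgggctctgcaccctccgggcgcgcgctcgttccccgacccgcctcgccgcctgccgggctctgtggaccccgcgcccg
AGO1, chr1:35882959-35883258: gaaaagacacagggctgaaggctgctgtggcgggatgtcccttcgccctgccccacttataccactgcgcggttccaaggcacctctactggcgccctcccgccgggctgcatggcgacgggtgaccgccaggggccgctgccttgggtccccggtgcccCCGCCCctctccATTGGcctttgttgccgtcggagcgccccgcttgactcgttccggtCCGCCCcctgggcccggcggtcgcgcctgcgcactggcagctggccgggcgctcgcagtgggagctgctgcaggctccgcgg
AGO3, chr1:35930855-35931154: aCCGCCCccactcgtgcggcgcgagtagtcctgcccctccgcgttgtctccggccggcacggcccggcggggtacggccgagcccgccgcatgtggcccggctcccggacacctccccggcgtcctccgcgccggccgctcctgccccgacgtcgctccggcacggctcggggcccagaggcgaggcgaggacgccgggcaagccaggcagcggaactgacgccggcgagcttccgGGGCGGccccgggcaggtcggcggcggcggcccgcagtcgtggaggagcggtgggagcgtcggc
The AGO4 window held none of the 4 motifs. The AGO1 window held 2 GC boxes and 1 CCAAT box, and the AGO3 window held 2 GC boxes. Of all 34943 RefSeq windows of this length, 44.9% held a GC box, 34.6% a CCAAT box, 7.72% TGANTCA and 41.8% TGANNNNGC. A match or its absence describes these letters only. Such windows were found for 9 of the 10 members.

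AGO4 (ENSG00000134698), an Argonaute without slicer activity, had 27.8 and 27.0 CPM in the HMOX1si1 libraries, 25.5 and 26.8 in the HMOX1si2 libraries, and 20.6 and 17.9 in the siControl libraries. The knockdown libraries did not overlap the controls, and those of the 2 siRNAs lay close together. Against siControl, AGO4 was higher by 0.51 on the log2 scale with HMOX1si1 (SE 0.11, edgeR adjusted p = 0.0461) and by 0.48 on average (SE 0.10, edgeR adjusted p = 0.0410), with a 95% interval of the average fold from 1.17 to 1.65. With HMOX1si2 it was 0.45 (SE 0.11) and missed the threshold (edgeR adjusted p = 0.0806), and the siRNAs differed by −0.06 (SE 0.11, edgeR adjusted p = 0.807). The call on average was lost without any 1 of the 6 libraries, where the log2 fold change lay between 0.38 and 0.58 and the edgeR adjusted p between 0.0561 and 0.211. It was lost with library totals as the scaling too (edgeR adjusted p = 0.0501). The call for HMOX1si1 was lost in each of the same settings, with edgeR adjusted p of 0.0571 for library totals and between 0.0522 and 0.191 without 1 library, and also with only the libraries of these groups in the fit (edgeR adjusted p = 0.0527). DESeq2's Wald test called AGO4 for HMOX1si1, for HMOX1si2 and on average (adjusted p = 0.00433, 0.0188 and 0.00187).

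AGO1 (ENSG00000092847), which silences mainly through TNRC6 partners, had 19.1 and 16.3 CPM with HMOX1si1, 20.2 and 18.0 with HMOX1si2, and 15.0 and 11.8 with siControl. All 4 knockdown libraries were above both controls, but the lowest of them was close to the higher control. The log2 fold change was 0.46 on average (SE 0.15, edgeR adjusted p = 0.0966), 0.41 with HMOX1si1 (SE 0.17, edgeR adjusted p = 0.162) and 0.52 with HMOX1si2 (SE 0.17, edgeR adjusted p = 0.125). The siRNAs differed by 0.11 (SE 0.17, edgeR adjusted p = 0.768). DESeq2's Wald test called the average (adjusted p = 0.0421). Without siControl replicate 2 the log2 fold change was 0.25 for HMOX1si1 and 0.30 on average, and without siControl replicate 1 it was 0.59 and 0.64.

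AGO3 (ENSG00000126070), which sits directly downstream of AGO1, had 13.9 and 15.8 CPM with HMOX1si1, 14.9 and 12.9 with HMOX1si2, and 17.9 and 14.6 with siControl. The groups overlapped, apart from HMOX1si2 replicate 2 at the low end and siControl replicate 1 at the high end. Its log2 fold change on average was −0.18 (SE 0.14, edgeR adjusted p = 0.405), with a 95% interval of the fold from 0.702 to 1.11. It was −0.13 for HMOX1si1 and −0.23 for HMOX1si2 (SE 0.16 each, edgeR adjusted p = 0.595 and 0.401), and −0.09 between the siRNAs (edgeR adjusted p = 0.797).

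AGO2 (ENSG00000123908), the slicing Argonaute, which lies apart from the other 3 genes on chromosome 8, had 156 and 159 CPM with HMOX1si1, 128 and 124 with HMOX1si2, and 166 and 121 with siControl. The control libraries enclosed all 4 knockdown libraries, and the 2 siRNA groups did not overlap each other. Its log2 fold changes against siControl were 0.13 for HMOX1si1 (SE 0.15, edgeR adjusted p = 0.588) and −0.19 for HMOX1si2 (SE 0.15, edgeR adjusted p = 0.472), and HMOX1si2 differed from HMOX1si1 by −0.32 (SE 0.15, edgeR adjusted p = 0.307). The 95% interval of the average fold ran from 0.783 to 1.23, and the average log2 fold change was −0.03 with all libraries, 0.21 without siControl replicate 1 and −0.23 without siControl replicate 2.

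Per kilobase of exon, AGO2 had the highest Argonaute level in every library, followed by AGO4, AGO1 and AGO3. The length used merges the exons of all annotated transcripts of a gene, expressed or not, so levels of different genes compare only roughly. AGO2 made up 63.4% ± 0.944 of the summed Argonaute level with HMOX1si1, 58.5% ± 0.398 with HMOX1si2 and 67.2% ± 2.18 with siControl (SD, n = 2 each). AGO4 made up 24.0% ± 0.460, 26.5% ± 1.43 and 19.9% ± 1.78 in the same order. The AGO2 share was lower, and the AGO4 share higher, in all 4 knockdown libraries than in both controls. No test of these shares was made. Without division by exon length, AGO4 made up 12.6%, 14.2% and 10.1% in the same order, and AGO3 (8.51%) stood above AGO1 (6.97%) in siControl. The summed level was 15.7 CPM per kb in each HMOX1si1 library, 13.8 and 13.4 in the HMOX1si2 libraries, and 15.2 and 11.6 in the siControl libraries, which overlap.

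**Figure D2:**
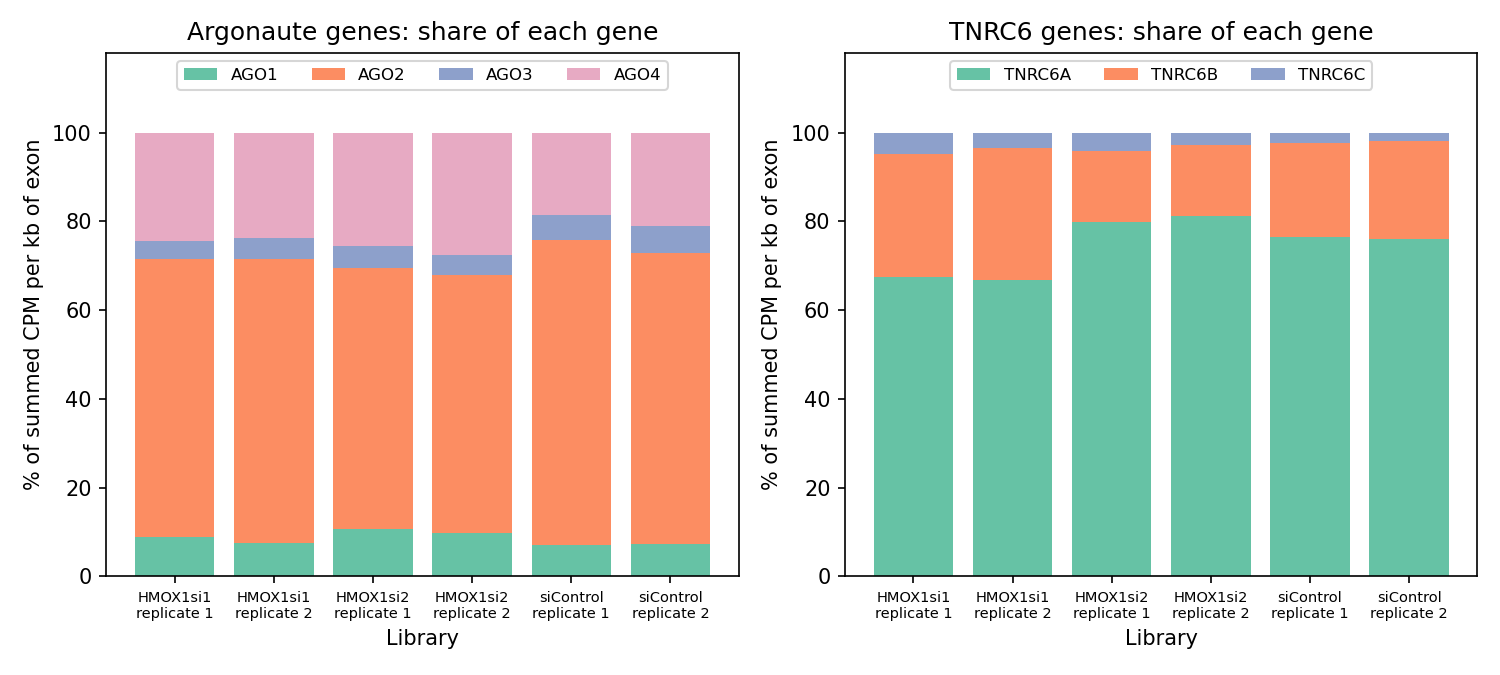
Share of each gene in the summed CPM per kb of exon of the Argonaute genes (left) and the TNRC6 genes (right), 1 bar per library. The AGO2 share is between 58.2% and 64.0% in knockdown libraries and 65.7% and 68.7% in siControl, and the TNRC6B share is 27.8% and 29.8% with HMOX1si1, 16.1% and 15.9% with HMOX1si2, and 21.4% and 22.2% with siControl.

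The TNRC6 proteins, also called GW182 proteins, carry the glycine-tryptophan repeats that dock onto Argonautes. TNRC6B (ENSG00000100354, chr22:40044817-40335808, plus strand) had 87.5 and 106 CPM with HMOX1si1, 59.9 and 47.2 with HMOX1si2, and 67.6 and 59.1 with siControl. Both HMOX1si1 libraries stood above all others, and the HMOX1si2 libraries reached into the control range at their upper end. The log2 fold change of HMOX1si2 against HMOX1si1 was −0.85 (SE 0.16, edgeR adjusted p = 0.0493), with a 95% interval of the fold from 0.421 to 0.727. Set against siControl, TNRC6B gave a log2 fold change of 0.61 for HMOX1si1 (SE 0.16, edgeR adjusted p = 0.0651) and −0.24 with HMOX1si2 (SE 0.16, edgeR adjusted p = 0.378), and on average it was 0.18 (SE 0.14, edgeR adjusted p = 0.409). Without HMOX1si2 replicate 1 or 2, the HMOX1si1 comparison passed (edgeR adjusted p = 0.0452 and 0.0449), as it did with only HMOX1si1 and siControl in the fit (edgeR adjusted p = 0.0471). The difference between the siRNAs lost its call without any 1 of the 6 libraries (log2 fold change −1.04 to −0.69, edgeR adjusted p 0.0668 to 0.213), with DESeq2 size factors (edgeR adjusted p = 0.0503) and with only the libraries of these groups in the fit (edgeR adjusted p = 0.0960). It held under DESeq2's Wald test (adjusted p = 0.000184), which also called TNRC6B for HMOX1si1 against siControl (adjusted p = 0.00995).

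TNRC6C (ENSG00000078687, chr17:77959240-78108835, plus strand) had the lowest mean level per kilobase over the 6 libraries of the 10 genes, although its range overlapped that of AGO3. It had 343 and 269 counts in the HMOX1si1 libraries, 355 and 208 in the HMOX1si2 libraries and 136 and 115 in the siControl libraries. In CPM these were 8.18 and 6.73, 8.18 and 4.60, and 3.76 and 2.59 in the same order. All knockdown libraries were above both controls, with HMOX1si2 replicate 2 nearest to them. On the log2 scale the difference from siControl was 1.24 for HMOX1si1 (SE 0.33, edgeR adjusted p = 0.0651), 1.01 for HMOX1si2 (SE 0.33, edgeR adjusted p = 0.125) and 1.12 on average (SE 0.29, edgeR adjusted p = 0.0639), and the interval of the average fold ran from 1.33 to 3.57. Between the siRNAs it was −0.22 (SE 0.32, edgeR adjusted p = 0.750). DESeq2's Wald test called all 3 comparisons with siControl (adjusted p = 0.00681, 0.0399 and 0.00441). In edgeR, HMOX1si1 passed without HMOX1si2 replicate 1 or 2 (edgeR adjusted p = 0.0342 and 0.0334) and with only HMOX1si1 and siControl in the fit (edgeR adjusted p = 0.0352). Without HMOX1si2 replicate 2, edgeR called the average as well (log2 fold change 1.30, edgeR adjusted p = 0.0286), and without HMOX1si2 replicate 1 the value for that siRNA was 0.54.

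TNRC6A (ENSG00000090905), the founding GW182 gene, had 137 and 154 CPM with HMOX1si1, 192 and 156 with HMOX1si2, and 156 and 131 with siControl. The groups overlapped, with HMOX1si2 replicate 1 above the rest. Its log2 fold change against siControl was 0.02 for HMOX1si1 (SE 0.15, edgeR adjusted p = 0.942) and 0.28 for HMOX1si2 (SE 0.15, edgeR adjusted p = 0.276), with 0.15 on average (edgeR adjusted p = 0.458). The siRNAs differed by 0.26 (SE 0.15, edgeR adjusted p = 0.380). Per kilobase, TNRC6A led the family in every library, with 67.1% ± 0.478 of the summed TNRC6 level for HMOX1si1, 80.6% ± 1.01 for HMOX1si2 and 76.2% ± 0.306 for siControl (SD, n = 2 each). The TNRC6B share was 28.8% ± 1.38, 16.0% ± 0.181 and 21.8% ± 0.581 in the same order, so the siRNA groups lay on opposite sides of the control in this share. In CPM, TNRC6B with HMOX1si2 overlapped siControl. As parts of the same sum, the shares of TNRC6A and TNRC6B are tied to each other, and no test of them was made. The TNRC6C share was 4.04% ± 0.905, 3.37% ± 0.832 and 1.95% ± 0.275.

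**Figure D3:**
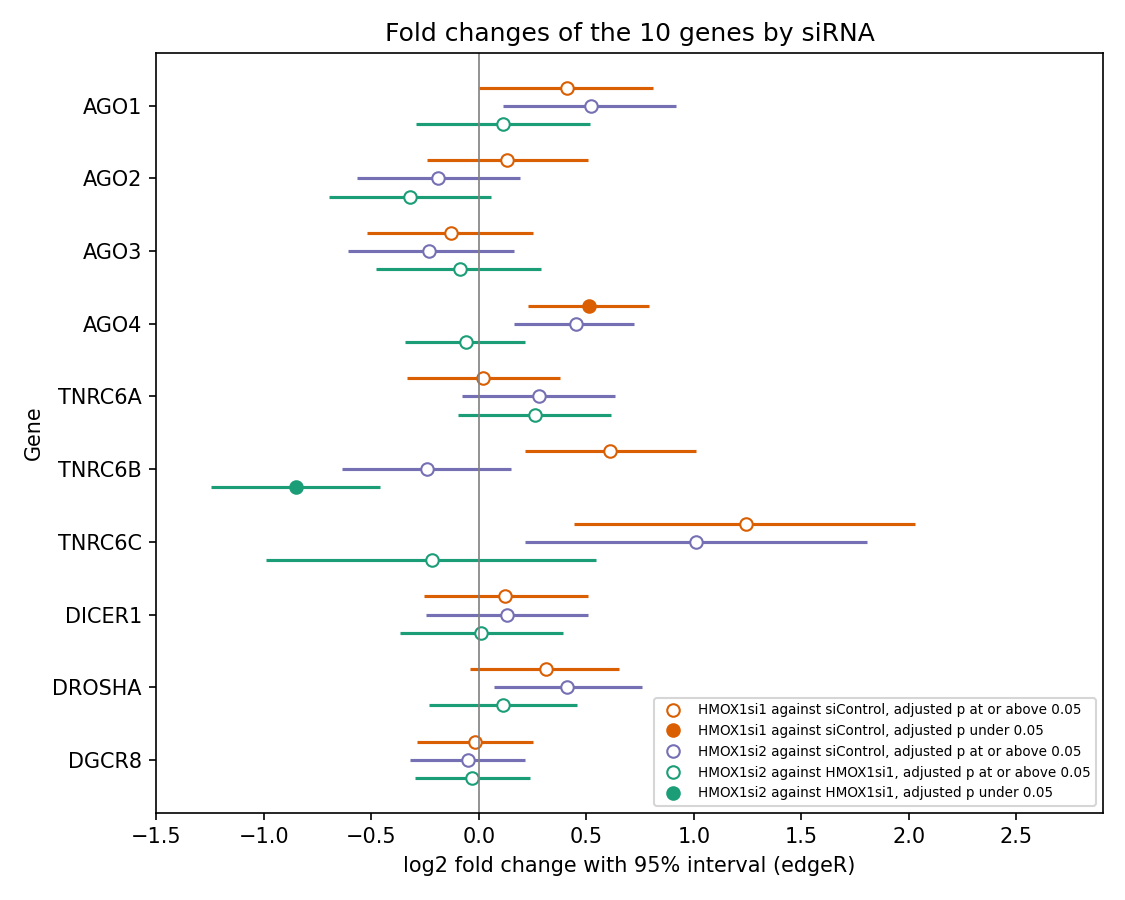
log2 fold change with 95% interval (edgeR, t quantile of the fit) of each gene for HMOX1si1 against siControl, HMOX1si2 against siControl and HMOX1si2 against HMOX1si1. Filled points have an adjusted p under 0.05: AGO4 at 0.51 with HMOX1si1 and TNRC6B at −0.85 between the siRNAs.

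Of the processing enzymes, DROSHA (ENSG00000113360, chromosome 5) had 78.0 and 91.9 CPM with HMOX1si1, 100 and 83.4 with HMOX1si2, and 73.4 and 64.2 with siControl. The knockdown libraries lay above both controls, the lowest of them just above siControl replicate 1. The log2 fold change was 0.36 on average (SE 0.12, edgeR adjusted p = 0.114), with a 95% interval of the fold from 1.04 to 1.58 before any adjustment for the number of genes. It was 0.31 for HMOX1si1 and 0.41 for HMOX1si2 (SE 0.14 each, edgeR adjusted p = 0.201 and 0.140), and 0.11 between the siRNAs (edgeR adjusted p = 0.721).

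DGCR8 (ENSG00000128191, chr22:20080232-20111877, plus strand) is known to be regulated by its own complex: the Microprocessor cleaves hairpins in the DGCR8 message, and 2 of them are annotated as microRNAs. Their mature sequences (RefSeq, GRCh38.p14, plus strand) are shown because they lie within this transcript unit, with the seed, bases 2 to 8, in capitals.
hsa-miR-3618, chr22:20085797-20085818: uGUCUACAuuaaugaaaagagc
hsa-miR-1306-5p, chr22:20086072-20086093: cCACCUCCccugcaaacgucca
hsa-miR-1306-3p, chr22:20086112-20086129: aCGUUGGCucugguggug
The 3 seeds differ from each other. DGCR8 had 34.2 and 39.3 CPM with HMOX1si1, 35.1 and 36.8 with HMOX1si2, and 38.7 and 35.9 with siControl. The 3 groups overlapped throughout. Its log2 fold change against siControl was −0.02 for HMOX1si1 (SE 0.11, edgeR adjusted p = 0.913) and −0.05 with HMOX1si2 (SE 0.11, edgeR adjusted p = 0.793). The interval of the average fold, from 0.831 to 1.14, was among the narrowest of the set, and the siRNAs differed by −0.03 (SE 0.11, edgeR adjusted p = 0.907). Counts of the message do not measure the hairpins or the mature microRNAs. DGCR8 was the only member that shares exonic bases with another gene of the table, 12 bases with TRMT2A on the opposite strand.

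The ratio of DROSHA to DGCR8 per kilobase, chosen after the values were seen, was 2.14 and 2.20 with HMOX1si1, 2.68 and 2.13 with HMOX1si2, and 1.78 and 1.68 with siControl. The knockdown and control libraries did not overlap, and no test was made of this ratio.

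DICER1 (ENSG00000100697, chromosome 14), which cuts precursor hairpins to their mature length, had 68.1 and 66.4 CPM with HMOX1si1, 70.5 and 64.7 with HMOX1si2, and 71.0 and 52.4 with siControl. The control libraries enclosed the knockdown libraries. The average log2 fold change was 0.13 (SE 0.13, edgeR adjusted p = 0.550), with a 95% interval of the fold from 0.871 to 1.37, and it was −0.07 without siControl replicate 2 and 0.36 without siControl replicate 1. It was 0.12 for HMOX1si1 and 0.13 for HMOX1si2 (SE 0.15 each, edgeR adjusted p = 0.615 and 0.622), and 0.01 between the siRNAs (edgeR adjusted p = 0.986). DICER1, TNRC6C, AGO3, DGCR8 and AGO1 are overlapped by annotated genes on the opposite strand (DICER1-AS1, TNRC6C-AS1, AL138787.2, AC006547.2 and the lincRNA AL139286.2). AGO2 shares exonic bases with AC067931.1 on its own strand. Whether the counting used strand is not stated, so reads of the opposite-strand partners may not be told apart. Strand could not separate AC067931.1 from AGO2 in any case.

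Ordered by mean CPM per kb over the 6 libraries, TNRC6A (11.9) and DROSHA (10.5) came first, then AGO2 (8.98), DICER1 (5.33), DGCR8 (5.01), TNRC6B (3.56), AGO4 (3.34), AGO1 (1.20), AGO3 (0.709) and TNRC6C (0.511). The ranges over libraries overlapped among TNRC6A, DROSHA and AGO2, and among DICER1, DGCR8 and TNRC6B. They also overlapped between TNRC6B and AGO4, and between AGO3 and TNRC6C. AGO1 and AGO3 met only at the edge of their ranges, with 0.847 CPM per kb as the lowest AGO1 value and 0.848 as the highest AGO3 value. The ranges did not overlap between AGO2 and DICER1 or between AGO4 and AGO1. These levels place TNRC6A above 72.7% of the tested genes and TNRC6C above 15.4%.

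Other genes of the pathway were counted from lists by role, to be read against the share of all tested genes that edgeR called higher and lower: 5.02% and 5.01% for HMOX1si1, 3.06% and 2.67% for HMOX1si2, 5.16% and 4.93% on average, and 2.14% and 1.49% for HMOX1si2 against HMOX1si1. Of the 23 tested genes of microRNA processing and export, among them the export receptor XPO5 and the DICER1 partner TARBP2, edgeR called 0 in each comparison. At an unadjusted p under 0.05 there were 2 for HMOX1si1, 6 for HMOX1si2, 5 on average and 0 between the siRNAs, where all tested genes gave 30.8%, 25.9%, 31.3% and 20.6%. DESeq2 called 2, 1, 2 and 0, where it called 19.2%, 14.9%, 19.1% and 10.7% of all genes. LIN28A and LIN28B of this list did not pass the expression filter. The median log2 fold change of this list was 0.05 on average.

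Of the 23 tested genes of Argonaute loading and turnover, 3 rose and 1 fell with HMOX1si1, 2 rose with HMOX1si2, 3 rose on average and 1 was lower with HMOX1si2 than with HMOX1si1, with a median log2 fold change of 0.01 on average. At an unadjusted edgeR p under 0.05 there were 5, 9, 7 and 6 in the same order of comparisons. All tested genes gave 30.8%, 25.9%, 31.3% and 20.6%. DESeq2 called 4 higher and 1 lower, 3 and 2, 3 and 1, and 1 and 2, where it called 19.2%, 14.9%, 19.1% and 10.7% of all genes. ANKRD52, a subunit of the phosphatase complex that removes phosphates from AGO2, had 206 and 224 CPM with HMOX1si1, 270 and 238 with HMOX1si2, and 134 and 124 with siControl. All knockdown libraries lay well above both controls. Its log2 fold change was 0.74 for HMOX1si1 (SE 0.11, edgeR adjusted p = 0.0168), 0.98 for HMOX1si2 (SE 0.11, edgeR adjusted p = 0.0177) and 0.86 on average (SE 0.10, edgeR adjusted p = 0.0116). FKBP5, a co-chaperone of HSP90, the chaperone that helps load Argonautes, had 83.4 and 86.1 CPM with HMOX1si1, 104 and 97.8 with HMOX1si2, and 60.6 and 56.6 with siControl, and rose on average by 0.66 on the log2 scale (SE 0.08, edgeR adjusted p = 0.0140). AHSA1, an activator of the HSP90 ATPase, had 95 and 89.3 CPM with HMOX1si1, 88.1 and 93.1 with HMOX1si2, and 62.3 and 71.5 with siControl, and rose on average by 0.45 (SE 0.09, edgeR adjusted p = 0.0391). In these genes too the knockdown libraries did not overlap the controls, and all 4 lay above both in 18.7% of all genes tested. The genes were named because they were called, so this adds no separate support. MOV10, an RNA helicase found with Argonautes, fell with HMOX1si1 (log2 fold change −0.41, SE 0.09, edgeR adjusted p = 0.0471), at 121 and 136 CPM against 169 and 173 with siControl. With HMOX1si2, MOV10 had 161 and 158 CPM and was not called (log2 fold change −0.10, SE 0.09, edgeR adjusted p = 0.521). On average it missed the threshold too (edgeR adjusted p = 0.0933). FKBP4, another HSP90 co-chaperone, was lower with HMOX1si2 than with HMOX1si1 (log2 fold change −0.64, SE 0.10, edgeR adjusted p = 0.0264), at 102 and 109 CPM against 166 and 162, while siControl stood between them at 126 and 139.

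Of 30 silencing effectors, which include the CCR4-NOT and PAN2-PAN3 deadenylases and the decapping factors, edgeR called BTG2 with HMOX1si1 and no other gene in any comparison. BTG2, which binds the CCR4-NOT deadenylase and restrains growth, had 10.4 and 11.5 CPM with HMOX1si1, 8.34 and 7.21 with HMOX1si2, and 7.24 and 6.87 with siControl, and rose with HMOX1si1 by 0.63 on the log2 scale (SE 0.14, edgeR adjusted p = 0.0458). At an unadjusted p under 0.05, edgeR had 9 of the 30 for HMOX1si1, 10 for HMOX1si2, 11 on average and 5 between the siRNAs, near the shares over all tested genes of 30.8%, 25.9%, 31.3% and 20.6%. DESeq2 called 5 for HMOX1si1 (4 higher, 1 lower), 2 for HMOX1si2, 3 on average and 1 between the siRNAs. In these comparisons it called 19.2%, 14.9%, 19.1% and 10.7% of all genes. The median log2 fold change of the list was 0.19 for HMOX1si1, 0.16 for HMOX1si2 and 0.16 on average.

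Of 5 tested genes of the PIWI clade, relatives of the Argonautes that act mainly in the germline, and their partners, edgeR and DESeq2 each called 0 in all 4 comparisons. At an unadjusted edgeR p under 0.05 there was 1 for HMOX1si2, 1 between the siRNAs and 0 in the other comparisons. All tested genes gave 30.8% for HMOX1si1, 25.9% for HMOX1si2, 31.3% on average and 20.6% between the siRNAs. Of 19 tested microRNA host genes, 1 fell with HMOX1si1, 1 fell with HMOX1si2, 2 fell on average and 1 was higher with HMOX1si2 than with HMOX1si1. At an unadjusted edgeR p under 0.05 there were 6, 4, 7 and 4 of the 19 in the same order of comparisons. The shares over all tested genes are those just given. DESeq2 called 1 host gene higher and 1 lower, 0 and 2, 1 and 2, and 1 and 1. Of all genes it called 19.2%, 14.9%, 19.1% and 10.7% in either direction. MEST, host of miR-335, had 9.92 and 8.23 CPM with HMOX1si1, 17.1 and 16.9 with HMOX1si2, and 18.9 and 21.5 with siControl. The HMOX1si1 libraries stood apart below the rest, with a log2 fold change of −1.15 against siControl (SE 0.14, edgeR adjusted p = 0.0116), and HMOX1si2 exceeded HMOX1si1 by 0.91 (SE 0.14, edgeR adjusted p = 0.0321). ZRANB2, host of miR-186, had 39.0 and 40.3 CPM with HMOX1si1, 33.4 and 34.2 with HMOX1si2, and 49.7 and 46.0 with siControl, and fell with HMOX1si2 by 0.50 on the log2 scale (SE 0.09, edgeR adjusted p = 0.0388). Levels of a host message do not give the level of its microRNA.

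Without siControl replicate 1 or 2, every call of a list gene named here was lost, with the values in the same direction. With the replicate number as a block in the fit, the calls of AHSA1, MOV10, FKBP4, BTG2 and ZRANB2 were lost. So were those of ANKRD52 with HMOX1si2, FKBP5 with each siRNA, and MEST on average and between the siRNAs. Library totals as the scaling lost the calls of ZRANB2 and that of AHSA1 with HMOX1si1. The calls of AHSA1, MOV10, FKBP4 and ZRANB2, and that of MEST between the siRNAs, were lost without any 1 of the 6 libraries, whereas the average call of ANKRD52 was lost only without a control library (edgeR adjusted p between 0.0147 and 0.113 over the 6).

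The genes whose pattern over the 6 libraries lay nearest to AGO4, by the root mean square difference of centred log2 CPM among 10837 candidates, were FOXK1 (0.0443), RAB3GAP1 (0.0445), TLN1 (0.0465), NAF1 (0.0470) and NR1D2 (0.0470). Nearest to TNRC6B were SMPDL3A (0.0601), MAGI1 (0.0724), RAB36 (0.0754), CAPRIN2 (0.0773) and AHR (0.0774). No other member of the set was among them.

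**Figure D4:**
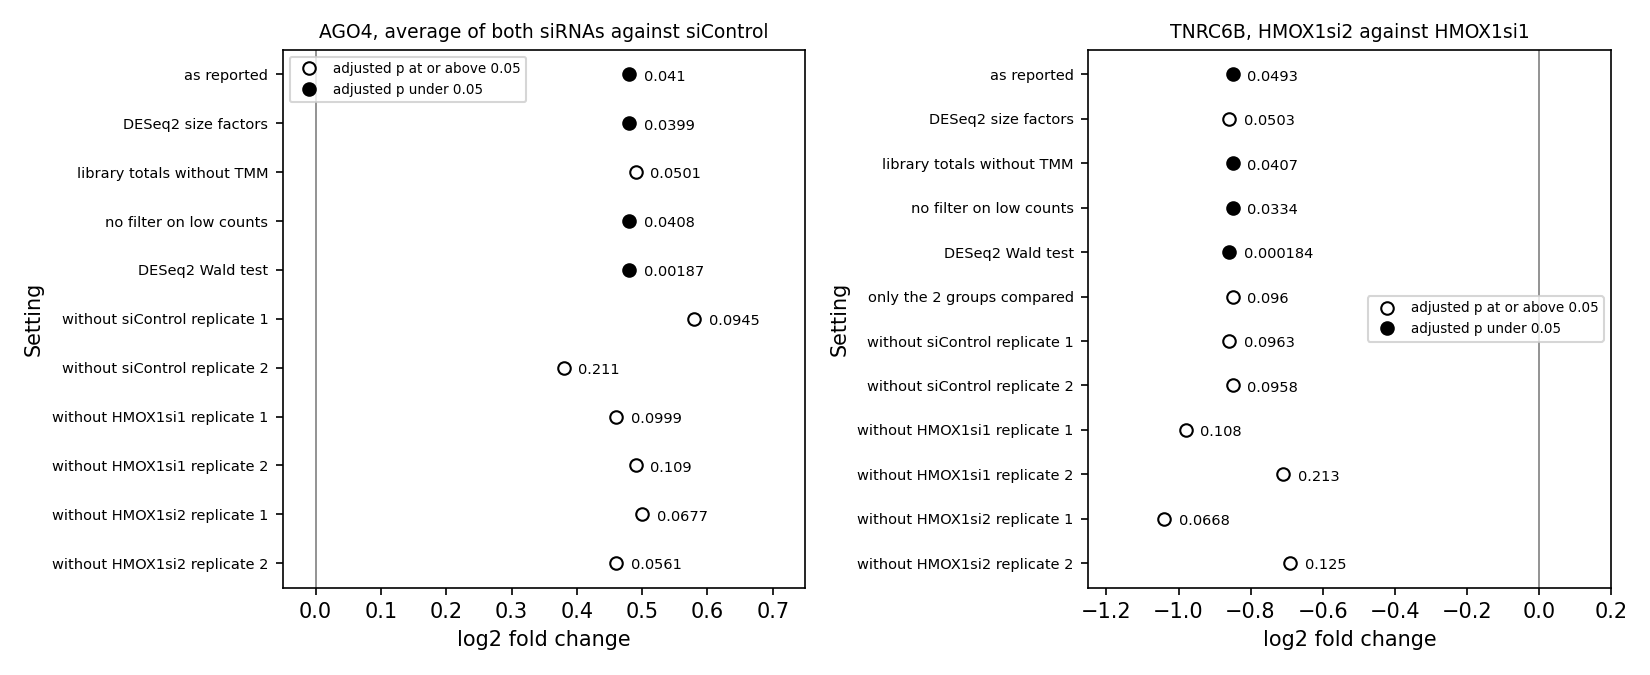
log2 fold change of AGO4 on average over both siRNAs against siControl (left) and of TNRC6B for HMOX1si2 against HMOX1si1 (right) under the processing settings tried, apart from the replicate blocks. The adjusted p is beside each point (edgeR, or DESeq2 where named), and filled points have an adjusted p under 0.05. With the replicate block, which is not drawn, both calls were lost (edgeR adjusted p = 0.0895 for AGO4 and 0.0988 for TNRC6B). AGO4 stays between 0.38 and 0.58 and TNRC6B between −1.04 and −0.69, while every setting that leaves out a library gives an open point.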

How the data were processed

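The deposited table holds whole-number counts per Ensembl gene and library, with 0 unused columns. How the authors aligned and counted is not stated in the labels or the file, and per the submitters' processing notes the builds were GRCm38 and mm10, whereas the gene identifiers are human. Values from 1 to 10 were even in 71.9% of cases, against 49.9% of values over 100, so mates of a fragment may have been counted apart. Of 20263 identifiers, 20148 matched a symbol and 20224 matched GENCODE 29 (GRCh38), which gave positions, overlaps and summed exon lengths.

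In R 4.3.3 with edgeR 4.0.16, genes were kept by filterByExpr (13769), TMM-scaled and entered in a model of 3 group means over 6 libraries (glmQLFit, glmQLFTest). A threshold of 0.05 on Benjamini-Hochberg adjusted p over all genes tested defined a call. SE is the absolute log2 fold change over the root of F, and 95% intervals use the t quantile of the fit's degrees of freedom (prior 3.11). log2 CPM for likeness used a prior count of 2 and genes of mean log2 CPM of at least 2. DESeq2 1.42.0 was an alternative, with other scalings, no filter, the replicate block, fewer groups and left-out libraries. All members are named; of each list, up to 6 called genes are named by smallest average p. The members and lists were chosen with earlier results of these data known. The fit was tested on simulated data with a smaller spread than these data and larger fold changes than those of the called members. That test does not cover calls near the threshold.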

Additional observations from a re-analysis of the deposited data

Results flagged for a closer look

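TNRC6B, a scaffold that links Argonautes to deadenylases, responded differently to the 2 siRNAs against HMOX1: its log2 fold change for HMOX1si2 against HMOX1si1 was −0.85 (SE 0.16, edgeR adjusted p = 0.0493), with both HMOX1si2 libraries (59.9 and 47.2 CPM) below both HMOX1si1 libraries (87.5 and 106 CPM). It was singled out because the difference between the siRNAs itself passed the test. That call was lost without any 1 of the 6 libraries (edgeR adjusted p 0.0668 to 0.213), and its cause was not tested.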

How the results depend on the processing

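With 2 libraries a group, the calls turn on single libraries, and the lone library left in a group is then assumed to vary like the other groups. For HMOX1si1, HMOX1si2 and the average against siControl, and for HMOX1si2 against HMOX1si1, edgeR called 1381, 789, 1389 and 499 genes, and DESeq2's Wald test called 2639, 1890, 2636 and 1411. With only the groups compared in the fit, edgeR called 179 genes for HMOX1si2 against siControl and 156 between the siRNAs. Leaving out 1 library gave 0 to 1492, 0 to 362, 0 to 1594 and 19 to 204 genes. The counts of 0 came without siControl replicate 2 (HMOX1si1, with 2806 genes at an unadjusted p under 0.05) and without siControl replicate 1 or 2 (HMOX1si2, 2968 and 2409; average, 3459 and 2562), and DESeq2 was not run on these subsets.

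Of the 10 members, DESeq2's Wald test called 3 for HMOX1si1, 2 for HMOX1si2, 3 on average and 1 between the siRNAs. Library totals gave 0 for HMOX1si1 and 0 on average, no filter gave 2 on average, DESeq2 size factors gave 0 between the siRNAs, and the fit of only the groups compared gave 2 for HMOX1si1 and 0 between the siRNAs. Leaving out 1 library gave 0 to 2, 0, 0 to 1 and 0 members in the 4 comparisons. The cause of these differences was not tested.

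The replicate numbers do not pair libraries by any label, and replicate differences of the groups correlated at −0.0142 (HMOX1si1 with siControl), 0.0813 (HMOX1si2 with siControl) and −0.301 (HMOX1si2 with HMOX1si1) across genes. The replicate block gave 481, 45, 255 and 87 genes, with 0 members on average and 0 between the siRNAs: the edgeR adjusted p was 0.0982 (HMOX1si1) and 0.0895 (average) for AGO4 and 0.0988 for TNRC6B, while TNRC6C passed with HMOX1si1 (0.0425). A crossed replicate block of the siRNA libraries, added after seeing the data, gave 1170 genes and 2 members.

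The sign of these log2 fold changes depended on the library left out. For HMOX1si1 the ranges were −0.071 to 0.37 (AGO2), −0.27 to 0.016 (AGO3), −0.097 to 0.15 (TNRC6A), −0.074 to 0.36 (DICER1) and −0.12 to 0.07 (DGCR8). For HMOX1si2 they were −0.39 to 0.05 (AGO2) and −0.067 to 0.36 (DICER1). On average they were −0.23 to 0.21 (AGO2), −0.071 to 0.36 (DICER1) and −0.087 to 0.013 (DGCR8). Between the siRNAs they were −0.2 to 0.003 (AGO3), −0.7 to 0.13 (TNRC6C), −0.055 to 0.065 (DICER1), −0.026 to 0.23 (DROSHA) and −0.12 to 0.071 (DGCR8). Without division by exon length, AGO2 made up 72.4% of the Argonaute sum with HMOX1si1, 68.0% with HMOX1si2 and 74.4% with siControl, AGO4 12.6%, 14.2% and 10.1%, and TNRC6B 38.7%, 22.9% and 30.2% of the TNRC6 sum.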
